A study of Homo sapiens with 12 samples.

Results

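The SLC25 genes encode the mitochondrial carrier family. The 48 with an SLC25A symbol in the deposited table were described in 2 glioblastoma cell lines with and without the arginine-degrading enzyme BCT-100. Members were the rows whose symbol is SLC25A followed by a number, without antisense or pseudogene symbols, 48 of 19824 entries in all. Total RNA was sequenced from U87 and U373, each labelled wild-type. Each line received phosphate-buffered saline (PBS) or 1 U/ml BCT-100 for 72 h. BCT-100 is a pegylated arginase I. Arginase hydrolyses arginine, with ornithine and urea as products. The 4 groups held 3 libraries each, all grown in high-glucose medium with serum, and the labels do not say whether the 3 were separate cultures.

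Mitochondrial carriers are small membrane proteins, most of which sit in the inner mitochondrial membrane and exchange solutes between the cytosol and the matrix. All are encoded in the nucleus and made in the cytosol, and those of the inner membrane are delivered there by the TIM22 import route. They link cytosolic metabolism to the matrix: ornithine, aspartate and glutamate carriers serve the urea and malate-aspartate cycles, ADP/ATP and phosphate carriers serve ATP synthesis, and others bring in nucleotides, folate, S-adenosylmethionine, glutathione and iron.

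The values are scaled read counts, in which the estimated read counts of a library are divided by 1 factor for that library. Depths recovered from the values ran from 18.89 to 25.92 M reads per library. The largest recovered depth and the smallest came from a U87 BCT-100 and a U373 PBS library. Together the members took 0.181% ± 0.00196 (SD, n = 3) of the summed value in U87 with PBS and 0.158% ± 0.000793 with BCT-100. In U373 their share was 0.202% ± 0.000647 and 0.181% ± 0.00193. The mRNA encoded by the mitochondrial genome itself moved with the treatment, from 5.92% ± 0.124 to 3.66% ± 0.0560 of the summed value in U87 and from 4.31% ± 0.0476 to 3.38% ± 0.0708 in U373. Whether this shift has a part in the changes of the nuclear carrier genes was not tested. Of the markers of glial and glioblastoma cells, VIM and CD44 were abundant in both lines, while GFAP, SOX2, S100B and FABP7 were at or near 0 in U87, with means of 3.58, 0.652, 0 and 1.99 with PBS. In U373 the PBS means of those 4 were 52220, 3934, 398.5 and 1806. OLIG2 went the other way, with PBS means of 20.6 in U87 and 0 in U373. With BCT-100 the sum of the 8 glial markers was lower. In U87 it was 223500 to 227600 with PBS and 108200 to 110600 with BCT-100. In U373 it was 283600 to 294700 and 86210 to 86700. VIM was the largest part of each sum, and its means went from 177100 to 70060 in U87 and from 166900 to 41780 in U373. OLIG2 rose instead, from 20.6 to 108.4 in U87 and from 0 to 9.80 in U373. S100B stayed near 0 in U87. The part of these markers in the changes of the carriers was not tested. The 4 leukocyte markers summed to at most 5.53 in any library. The 4 epithelial markers summed to at most 30.3 in U87 and to 230.8 to 331.5 in U373, where nearly all of the sum was KRT18, and the 3 endothelial markers to at most 86.4. In such bulk samples, a lower share of cells that express a gene and less of its RNA per cell cannot be told apart.

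Of the 48 members, 40 reached a value of 10 in at least 3 libraries and were tested. The other 8 were SLC25A2, SLC25A21, SLC25A31, SLC25A34, SLC25A41, SLC25A47, SLC25A48 and SLC25A52. SLC25A21, an oxodicarboxylate carrier, SLC25A31, a testis form of the ADP/ATP carrier, and SLC25A48 had 0 reads in all 12 libraries, where a count of 0 allows up to 3 reads in each library. The second ornithine carrier SLC25A2 had 3 and 1 reads over the PBS and BCT-100 libraries of U87 and 9 and 0 over those of U373. SLC25A34 had 8 and 7 reads in U87 and 21 and 10 in U373. SLC25A41 had 8, 5, 1 and 0 reads over the groups in the same order, and SLC25A47 3, 1, 1 and 0. For SLC25A52, a near copy of SLC25A51, the sums were 1.06, 3.21, 2.11 and 1.07 estimated reads. Differences among these 8 could not be detected at this depth.

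Ranked by scaled read count per kilobase of transcript, the phosphate carrier SLC25A3 and the ADP/ATP carrier SLC25A5 led the family in each group. Both together made up 48.0% of the family's summed level per kilobase in U87 with PBS and 43.9% with BCT-100. In U373 they held 51.5% and 43.0%. The lines differed in what followed. In U87 with PBS the next members were SLC25A39, SLC25A46 and SLC25A1, and in U373 with PBS SLC25A39, SLC25A6 and SLC25A11. SLC25A6 has identical entries that were not added here, and the entry used appears to hold only part of its reads. In U373 with PBS that entry gave 1221.3 per kilobase, against 1693.6 for SLC25A39. With the entries added, SLC25A6 could thus precede SLC25A39, other ranks could shift, and the shares of SLC25A3 and SLC25A5 would be lower. With BCT-100 the iron carrier SLC25A37 reached rank 3 in U87, and the folate carrier SLC25A32 rank 5 in U373. SLC25A10 dropped from rank 24 to rank 35 in U87 and from rank 10 to rank 34 in U373.

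**Figure D1:**
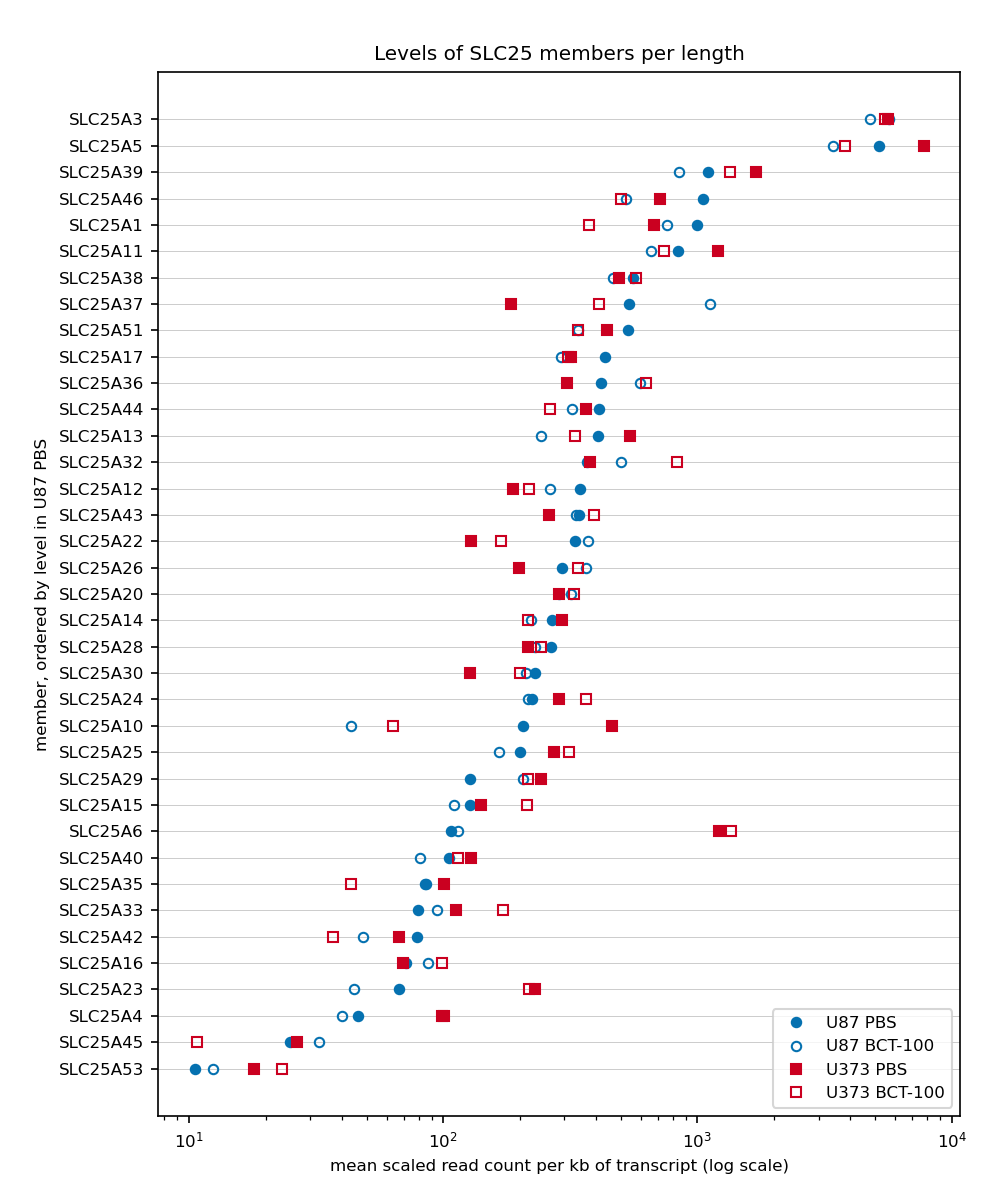
Mean scaled read count per kilobase of transcript (log scale) for members with a summed PBS level above 20 that are reported here, in U87 (circles) and U373 (squares), with PBS (filled) and BCT-100 (open), n = 3 libraries a point. SLC25A3 and SLC25A5 stand above all others, the U373 points of SLC25A6 lie far to the right of its U87 points, and the open points of SLC25A10 lie far to the left of the filled ones.

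Which carriers respond to BCT-100, and whether both lines respond alike, was examined with limma on log2(value + 1) over all 13628 rows that passed the filter. A change was called at a Benjamini-Hochberg adjusted p under 0.05. In U87, 8 of the 40 tested members rose and 20 fell, and 12 were not called. That is 20% and 50%, against 33.6% and 35.7% of all tested rows. The median log2 change was -0.21 over the members and -0.0050 over all rows. In U373, 18 members rose (45%, against 35.6% of all rows) and 16 fell (40%, against 35.8%), and 6 were not called. Here the median was 0.084 over the members and 0 over all rows.

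The response of U87 minus that of U373, tested as the interaction, was called higher for 7 members (17.5%, against 26.1% of all rows) and lower for 17 (42.5%, against 30.7%), or 24 in either direction (60%, against 56.8%). Over the members its median was -0.22, and over all rows -0.036. Between the lines with PBS alone, 14 members were higher in U87 (35%, against 43.0% of rows) and 14 were lower (35%, against 40.1%). Most of all rows were called in each line, so a called member is not by itself unusual. The counts include SLC25A18, which has few reads and passed the filter only through the PBS groups. Without it, 19 of 39 members fell in U87 (48.7%) and 15 in U373 (38.5%). Where a call is said below to be lost, alternatives other than a test against a fold of 1.5 are meant, and each call so named was also lost under that test, at an adjusted p of 1.

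**Figure D2:**
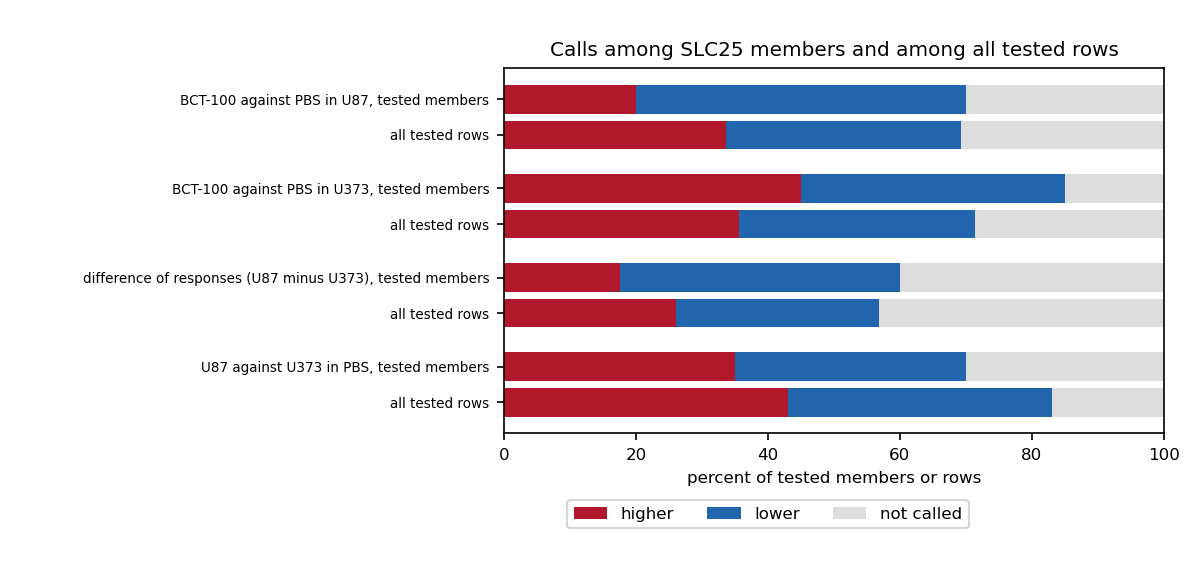
Percent of the 40 tested SLC25 members and of all 13628 tested rows called higher, called lower or not called (limma, adjusted p under 0.05) in each of the 4 comparisons. In U87 the members' lower share is 50% against 35.7% of rows, and in U373 their higher share is 45% against 35.6%.

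Of the 24 members called in both lines, 20 moved in the same direction. Among all 13628 rows, 3033 rose in both lines, 3144 fell in both and 1299 moved in opposite directions. Most rows called in both lines thus moved alike as well. Rises in both lines were seen for 7 members (17.5% of those tested, against 22.3% of all rows): SLC25A16, SLC25A22, SLC25A26, SLC25A32, SLC25A33, SLC25A36 and SLC25A37. Falls in both were called for 13 (32.5%, against 23.1%), or 12 without SLC25A18: SLC25A1, SLC25A5, SLC25A10, SLC25A11, SLC25A13, SLC25A14, SLC25A18, SLC25A39, SLC25A40, SLC25A42, SLC25A44, SLC25A46 and SLC25A51. SLC25A29 rose in U87 and fell in U373, and SLC25A12, SLC25A25 and SLC25A38 did the opposite, 4 members in all (10%, against 9.53% of all rows). As a description, the log2 changes of both lines had a Pearson r of 0.721 and a Spearman rho of 0.663 across the 39 tested members other than SLC25A18, and of 0.798 and 0.688 with it. The lines have no library in common here, but the points share the authors' scaling, and genes are not independent replicates.

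**Figure D3:**
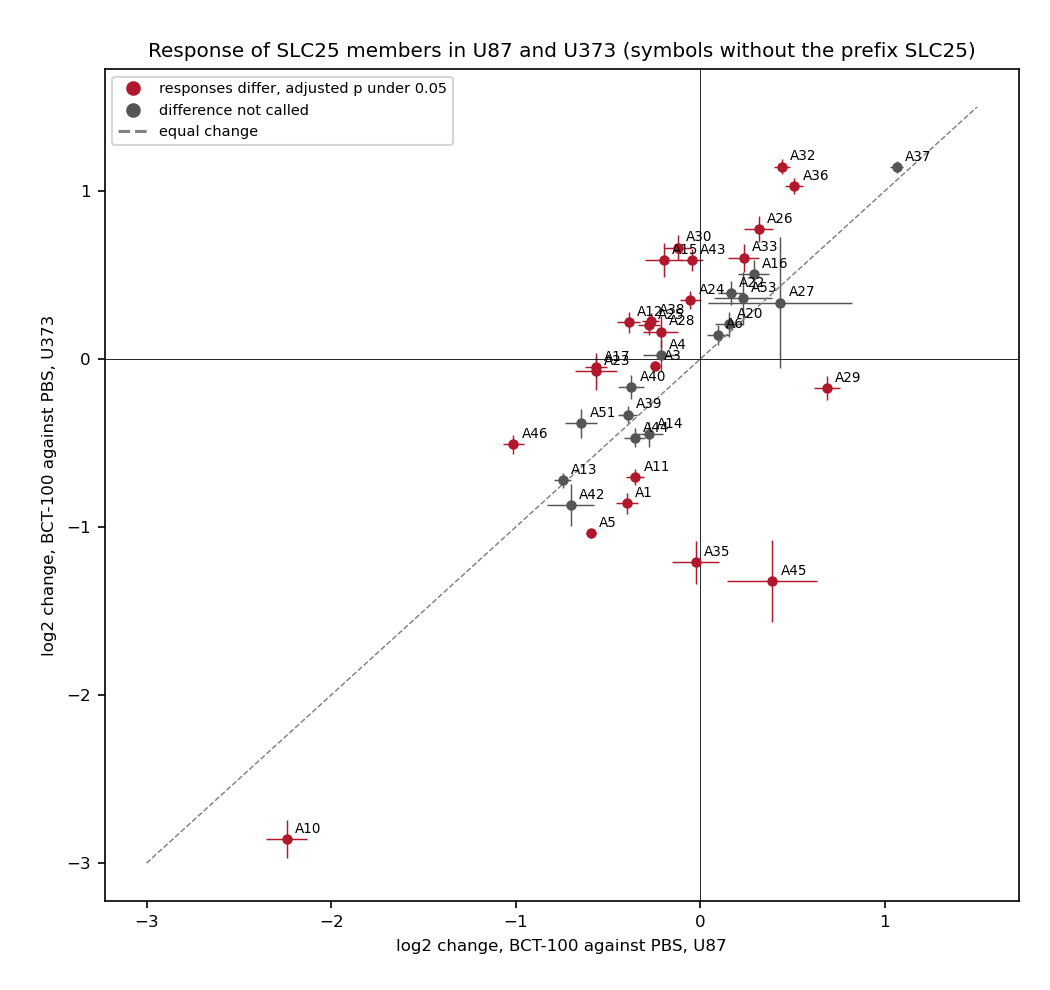
Log2 change with BCT-100 against PBS in U87 (horizontal) and U373 (vertical) for tested members without SLC25A18, with standard errors as bars. Red marks members whose responses differ between the lines. SLC25A10 lies alone at the lower left with -2.24 and -2.86, SLC25A37 lies near the dashed line of equal change, and SLC25A29, SLC25A35 and SLC25A45 lie to its lower right.

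**Figure D4:**
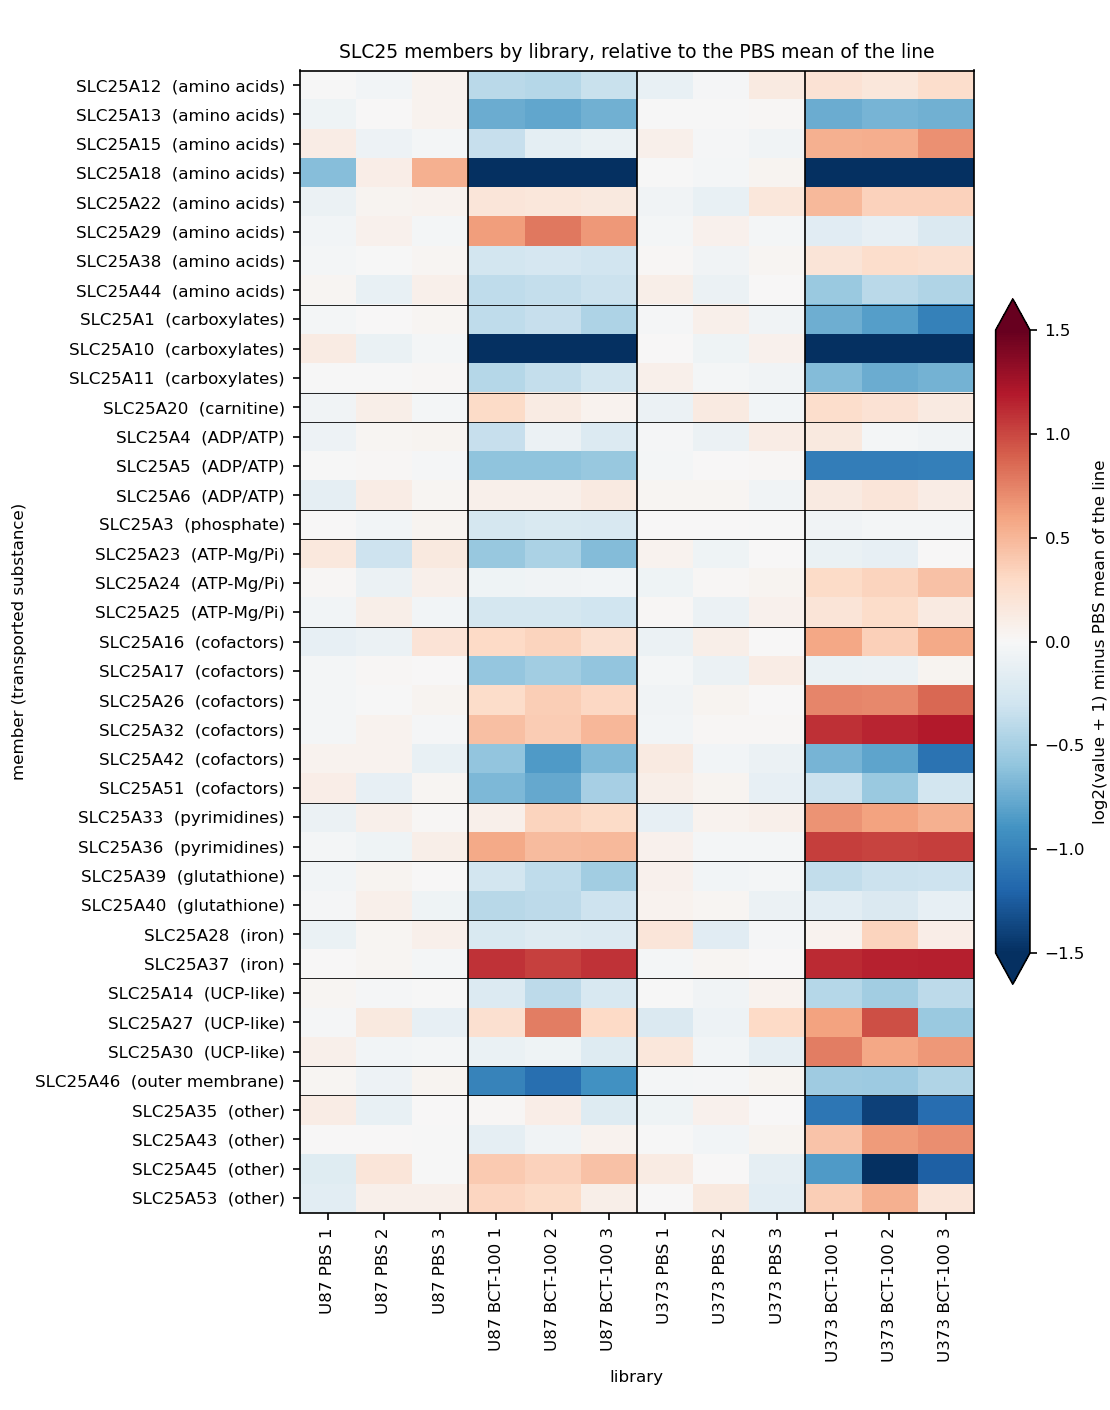
Log2(value + 1) of tested members in each of the 12 libraries, minus the PBS mean of the same line, ordered by the substance carried (red higher, blue lower, scale closed at 1.5 in either direction). The 3 libraries of each group have like colours in most rows, SLC25A10 and SLC25A18 are dark blue with BCT-100 in both lines, and SLC25A37 is red in both. SLC25A18 has few reads and passed the filter only through the PBS groups, so no fall is read from its colour.

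Stretches of DNA before the RefSeq gene start of 3 members are shown here because SLC25A46 is among the members that fell by the most in U87, SLC25A33 and SLC25A36 form a role group that rose in both lines, and matches to short motifs differ among them. They come from the RefSeq promoter table (GRCh38.p14, plus strand) and are cut to bases that no annotated exon covers. SLC25A46 (chr5:110738957-110738993) fell in both lines, and SLC25A33 (chr1:9539215-9539464) and SLC25A36 (chr3:140941586-140941829) rose in both. GENCODE v29 starts SLC25A46 earlier, at 110738136, so its stretch lies within the gene by that annotation and outside its exons. Capitals mark the E-box CACGTG and the cAMP response element TGACGTCA.
SLC25A46: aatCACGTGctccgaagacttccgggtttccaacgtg
SLC25A33: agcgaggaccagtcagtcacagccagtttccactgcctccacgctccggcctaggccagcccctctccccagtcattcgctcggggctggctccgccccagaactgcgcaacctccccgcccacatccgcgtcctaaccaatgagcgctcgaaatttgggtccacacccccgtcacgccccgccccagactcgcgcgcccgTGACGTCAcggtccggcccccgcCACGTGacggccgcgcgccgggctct
SLC25A36: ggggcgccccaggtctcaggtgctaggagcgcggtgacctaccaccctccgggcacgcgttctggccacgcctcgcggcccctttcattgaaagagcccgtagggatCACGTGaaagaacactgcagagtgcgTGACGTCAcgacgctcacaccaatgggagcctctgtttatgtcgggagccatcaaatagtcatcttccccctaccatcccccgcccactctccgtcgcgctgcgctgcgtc
SLC25A46 held the E-box, and the pyrimidine nucleotide carriers SLC25A33 and SLC25A36 each held both motifs.

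Windows from 250 bases before to 50 bases after the gene start were available for 40 members, in 50 windows, since some members have more than 1 start. Those of SLC25A2, SLC25A16, SLC25A30, SLC25A32, SLC25A35, SLC25A37 and SLC25A41 were not used here. Matches were sought on both strands. The E-box was in 9 of the 50 windows (18%), against 7.27% of all 34961 windows and 9% of those of tested genes. Its 9 members were SLC25A13, SLC25A22, SLC25A26, SLC25A31, SLC25A33, SLC25A36, SLC25A38, SLC25A46 and SLC25A51, which hold 4 that rose in both lines, 3 that fell in both, 1 that moved in opposite directions and 1 that was not tested. The cAMP response element, chosen after the sequences were seen, was in 3 windows (6%, against 1.85% and 2.66%), those of SLC25A25, SLC25A33 and SLC25A36. TGATGNAA, a core of the C/EBP-ATF response element, was in 1 window, that of SLC25A11 (2%, against 3.62% and 2.18%). The NRF1 core GCATGCGC and the estrogen-related receptor element TCAAGGTCA were in 0 of the 50 windows. They were in 3.06% and 0.355% of all windows, and in 4.5% and 0.149% of those of tested genes. A match is a description of letters in a window and not a measured binding site.

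Carriers of di- and tricarboxylates fell together. All 3 tested members were lower in both lines, as were 23.1% of all rows. The largest changes of the tested members other than SLC25A18 were those of SLC25A10, which exchanges malate and succinate for phosphate. In U87 its scaled read counts were 428, 365 and 385 with PBS and 70.4, 93.8 and 83.7 with BCT-100. In U373 they were 886, 845 and 924 with PBS and 135, 121 and 109.8 with BCT-100. All BCT-100 libraries of both lines lay far below all PBS libraries. The fall was 4.73-fold in U87 (limma log2 change -2.24, SE 0.11, adjusted p = 3.65e-13) and 7.24-fold in U373 (log2 change -2.86, SE 0.11, adjusted p = 6.33e-15), and the response differed between the lines (log2 difference 0.62, SE 0.16, adjusted p = 0.00255). SLC25A10 lies on chromosome 17 from 81712236 to 81721016, and an annotated protein-coding gene, AC139530.2, overlaps it on the same strand and is not a row of the table.

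The citrate carrier SLC25A1 exports citrate for fatty acid synthesis. Its scaled read counts in U87 were 1539, 1586 and 1606 with PBS and 1208, 1244 and 1145 with BCT-100. U373 gave 1054, 1125 and 1034 with PBS and 641, 604 and 529.5 with BCT-100. The groups did not overlap in either line, and the fall was larger in U373 (log2 change -0.86, SE 0.061, adjusted p = 8.12e-11) than in U87 (log2 change -0.40, SE 0.061, adjusted p = 7.66e-06), with a difference of 0.46 (adjusted p = 0.000121, limma interaction). SLC25A11, the oxoglutarate-malate carrier of the malate-aspartate shuttle, gave 1189, 1192 and 1212 with PBS and 892, 934 and 994 with BCT-100 in U87. Its U373 values were 1807, 1680.4 and 1652 with PBS and 1089.5, 1019 and 1048 with BCT-100. Again all BCT-100 libraries were below all PBS libraries, with log2 changes of -0.35 (SE 0.050) and -0.70 (SE 0.050) and limma adjusted p-values of 2.66e-06 and 8.03e-11. The fall of SLC25A11 was also the larger in U373 (difference 0.35, adjusted p = 0.000261).

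Amino acid carriers split by member and by line. Of 7 tested without SLC25A18, 2 rose and 4 fell in U87 (33.6% and 35.7% of all rows), and 4 rose and 3 fell in U373 (35.6% and 35.8% of all rows). SLC25A13, or citrin, which exchanges aspartate for glutamate, had scaled read counts of 1229, 1295 and 1338 with PBS and 771, 748 and 783 with BCT-100 in U87. The U373 libraries held 1712, 1712 and 1744 with PBS and 1030.1, 1058 and 1048 with BCT-100. Its groups were fully apart in both lines and its falls were nearly equal, with log2 changes of -0.75 and -0.72 (SE 0.044, limma adjusted p = 5.89e-12 and 8.63e-12). SLC25A12, or aralar, does the same exchange. It had 1020, 993 and 1060.2 with PBS and 774, 761 and 814 with BCT-100 in U87. The U373 libraries held 516, 551 and 610 with PBS and 649, 629 and 672 with BCT-100. SLC25A12 therefore fell in U87 (log2 change -0.39, SE 0.062, adjusted p = 1.3e-05) and rose in U373 (log2 change 0.22, SE 0.062, adjusted p = 0.00362) without overlap of groups, and the responses differed by -0.61 (limma adjusted p = 6.48e-06).

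SLC25A22 and SLC25A18 carry glutamate into the matrix. SLC25A22 gave scaled read counts of 834, 913 and 918 with PBS and 1007, 998 and 985 with BCT-100 in U87. U373 libraries gave 331, 319 and 386 with PBS and 482, 437 and 438 with BCT-100. It rose in U373 (log2 change 0.39, SE 0.071, adjusted p = 5.61e-05), while its smaller rise in U87 (log2 change 0.17, SE 0.071, adjusted p = 0.0447) was no longer called under 7 of the 22 alternatives other than the test against a fold of 1.5, at adjusted p-values of 0.0528 to 0.19. Those were no filter on low values, the replicate block, and leaving out U87 PBS replicate 1 or 2 or any one of the U87 BCT-100 replicates. SLC25A18 was barely expressed, with 12.7, 21.8 and 29.8 with PBS and 2.07, 0 and 3.26 with BCT-100 in U87. Its U373 values were 20.3, 19.9 and 20.9 with PBS and 4.24, 3.98 and 0 with BCT-100. It passed the filter only through the PBS groups and had to differ for that reason. Over the group its reads numbered 65 with PBS and 5 with BCT-100 in U87, and 62 and 8 in U373, and no fold is read from it.

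Ornithine, the product of arginase, enters mitochondria through SLC25A15. In U87 the scaled read counts of SLC25A15 were 217, 190.1 and 197 with PBS and 157, 182 and 187 with BCT-100. In U373 the values were 236, 221 and 215 with PBS and 324, 327 and 362 with BCT-100. The treated U373 libraries lay above all their controls, 1.5-fold higher (log2 change 0.59, SE 0.10, adjusted p = 2.82e-05), while in U87 the treated libraries lay below their controls with a change that was not called (log2 change -0.20, SE 0.10, adjusted p = 0.0886). The responses differed by -0.79 (limma adjusted p = 9.46e-05). GENCODE holds 5 pseudogenes named after SLC25A15, so part of its reads may be assigned with uncertainty. Its recovered reads were whole numbers in every library.

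SLC25A29 carries arginine, lysine and other basic amino acids. Its U87 libraries gave 277, 299 and 281 with PBS and 440.3, 494 and 448 with BCT-100 as scaled read counts. Those of U373 gave 534, 569 and 533 with PBS and 483, 500 and 468 with BCT-100. SLC25A29 rose 1.61-fold in U87 (log2 change 0.69, SE 0.071, adjusted p = 3.13e-08) and fell slightly in U373 (log2 change -0.17, SE 0.071, adjusted p = 0.0363), with no overlap of groups in either line. The fall in U373 was not called after quantile normalisation or without U373 PBS replicate 2 or U373 BCT-100 replicate 1 or 3, at adjusted p-values of 0.0681 to 0.126. The difference of the responses was 0.86 (limma adjusted p = 3.88e-07). Of these 2 carriers, SLC25A15 was thus called higher in U373 alone and SLC25A29 in U87 alone.

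The glycine carrier SLC25A38, which supplies heme synthesis, fell by 0.27 on the log2 scale in U87 and rose by 0.23 in U373, and its responses differed (limma adjusted p = 2.08e-06). SLC25A44, a carrier of branched-chain amino acids, fell in both, by 0.35 and 0.47, without a called difference (0.11, adjusted p = 0.238).

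**Figure D5:**
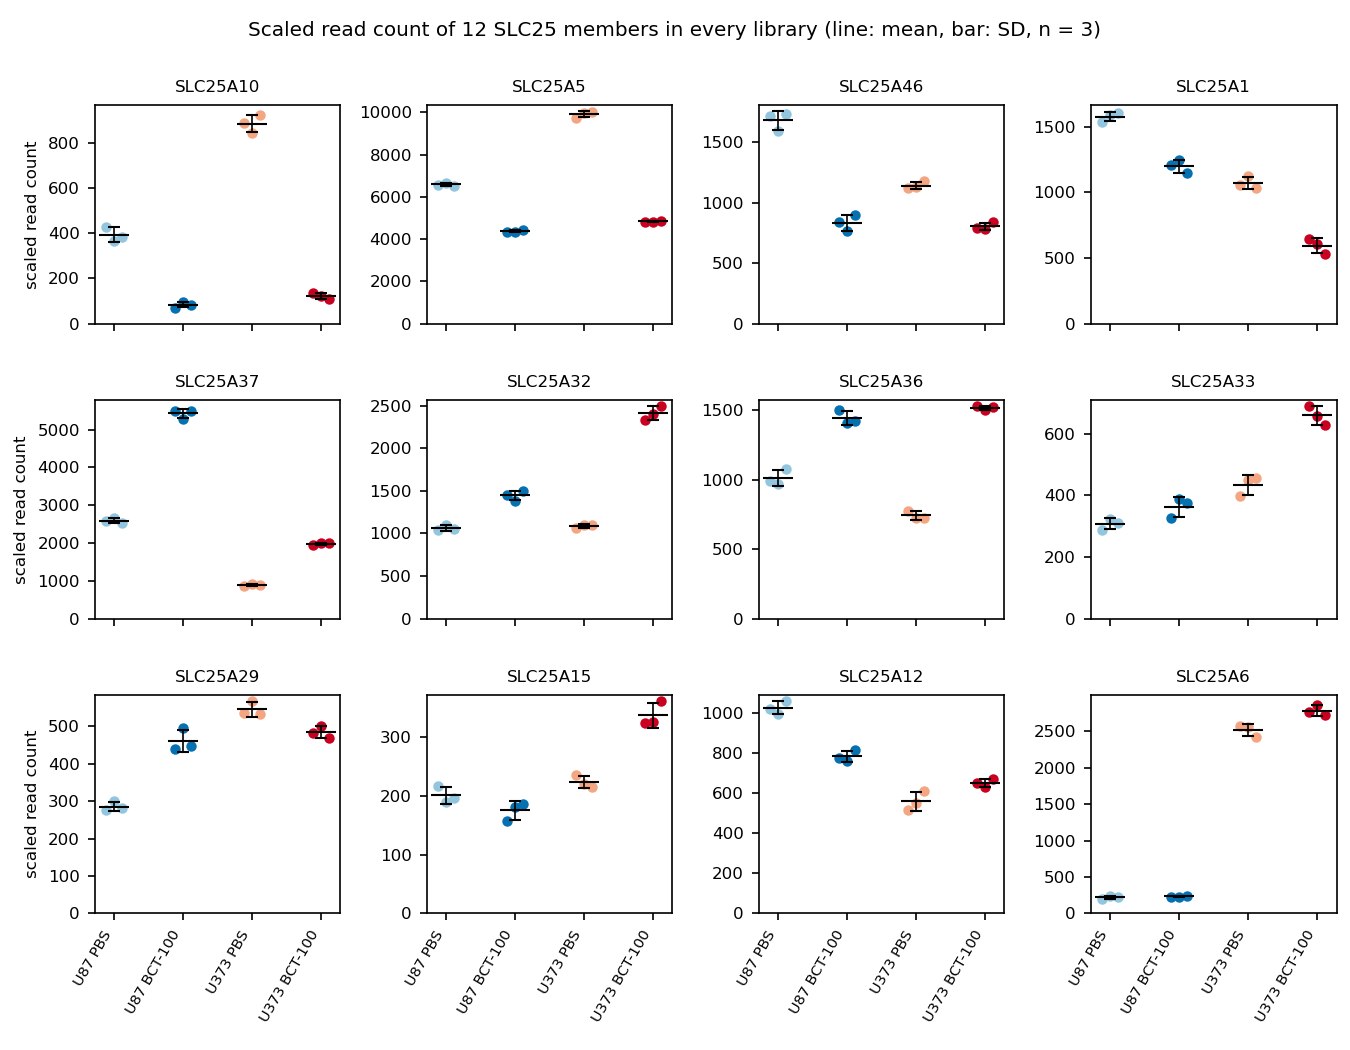
Scaled read count of 12 members in each library (points), with the group mean (line) and SD (bar), n = 3, axes from 0. SLC25A10, SLC25A5, SLC25A46 and SLC25A1 are lower with BCT-100 in both lines, SLC25A37, SLC25A32, SLC25A36 and SLC25A33 are higher in both, SLC25A29, SLC25A15 and SLC25A12 differ in response, and SLC25A6 differs mainly between the lines.

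Among the ADP/ATP carriers, which bring ADP into the matrix and ATP out, the main form fell in both lines. SLC25A5 had scaled read counts of 6570.1, 6659.5 and 6521 with PBS and 4336, 4346 and 4423 with BCT-100 in U87. U373 gave 9739, 9963 and 10027 with PBS and 4824, 4815 and 4859 with BCT-100. The groups lay far apart against the small spread within each. SLC25A5 fell 1.51-fold in U87 (log2 change -0.59, SE 0.026, adjusted p = 4.69e-14) and 2.05-fold in U373 (log2 change -1.04, SE 0.026, adjusted p = 5.03e-18), the larger fall being in U373 (difference 0.44, limma adjusted p = 2.98e-09). It lies on chromosome X and has 9 pseudogenes of its name in the annotation, the most of any member.

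SLC25A6 showed the largest difference between the lines with PBS. Its scaled read counts were 200, 237 and 225 with PBS and 233, 231 and 242 with BCT-100 in U87. Those of U373 were 2566, 2566 and 2423 with PBS and 2769, 2865 and 2720.2 with BCT-100. Every U373 library was far above every U87 library, and with PBS the level in U87 was 11.4-fold lower (log2 difference -3.51, SE 0.060, adjusted p = 4e-21). The treatment moved it little: it was not called in U87 (log2 change 0.10, SE 0.060, adjusted p = 0.169) and rose slightly in U373 (log2 change 0.15, SE 0.060, adjusted p = 0.0381). That rise was lost under 8 of the 22 alternatives other than the test against a fold of 1.5, at adjusted p-values of 0.0524 to 0.177. They were median-of-ratios scaling, upper quartile scaling, quantile normalisation, and leaving out any one of the U373 PBS replicates or U373 BCT-100 replicate 1 or 2. The gene sits in the region shared by the X and Y chromosomes and has 2 entries with identical values, of which 1 was used. In 6 libraries its recovered reads lay midway between whole numbers, such as 204.5 in U87 PBS replicate 1. In the others they were whole. An even split of whole reads between the 2 entries gives this pattern, so the entry used appears to hold 1 of 2 equal parts.

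SLC25A4, the form of heart and muscle, stayed at low levels, with 196, 210.1 and 213 with PBS and 162, 194 and 178 with BCT-100 in U87. Values in U373 were 432, 411 and 474 with PBS and 485, 430.3 and 422 with BCT-100. U373 was above U87 in all libraries (log2 difference -1.08, SE 0.094, adjusted p = 1.2e-09 for U87 against U373 with PBS). Its fall in U87 (log2 change -0.21, SE 0.094, adjusted p = 0.0493) was lost under 16 of the 22 alternatives other than the test against a fold of 1.5, at adjusted p-values of 0.0517 to 0.316. Among these were no filter, 3 other scalings, voom weights, a fit of each line alone, the replicate block, and leaving out U87 PBS replicate 2 or 3, U87 BCT-100 replicate 1 or 3, any U373 PBS replicate, or U373 BCT-100 replicate 2 or 3. In U373 it was not called (0.022, adjusted p = 0.85).

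Per kilobase, SLC25A5 supplied 97.1% ± 0.173 (SD, n = 3) of the summed level of these 3 forms in U87 with PBS and 95.7% ± 0.1 with BCT-100. In U373 its share was 85.5% ± 0.458 with PBS and 72.4% ± 0.603 with BCT-100, and that of SLC25A6 went from 13.4% ± 0.569 to 25.7% ± 0.611. These shares use 1 entry of SLC25A6, which appears to hold only part of its reads. With both entries added, its share in U373 went from 23.7% ± 0.87 to 40.9% ± 0.77. The U373 share of SLC25A5 then went from 75.4% ± 0.82 to 57.6% ± 0.76. Under either count the make-up moved from SLC25A5 towards SLC25A6.

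The phosphate carrier SLC25A3, which supplies phosphate for ATP synthesis, fell slightly in U87 and was not called in U373. Its scaled read counts were 7694, 7451 and 7934 with PBS and 6412, 6549 and 6526 with BCT-100 in U87. For U373 they were 7693, 7668 and 7621 with PBS and 7359, 7479.5 and 7516 with BCT-100. The 3 treated U87 libraries were below their controls (log2 change -0.24, SE 0.027, adjusted p = 1.14e-07), while in U373 they were also all below their controls, with a change that was not called (log2 change -0.040, SE 0.027, adjusted p = 0.201). The difference of -0.20 was called (limma adjusted p = 0.000154), though it is small.

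The calcium-regulated ATP-Mg/phosphate carriers SLC25A23, SLC25A24 and SLC25A25 adjust the matrix pool of adenine nucleotides. For all 3 the response in U87 was called the lower one, as for 30.7% of all rows. SLC25A23 had scaled read counts of 179.9, 129 and 179 with PBS and 108, 115 and 102 with BCT-100 in U87. The U373 libraries held 576, 531 and 556 with PBS and 517, 507 and 556 with BCT-100. It was higher in every U373 library than in any U87 library (3.43-fold at PBS, log2 difference -1.78, SE 0.11, adjusted p = 6.6e-12), and it fell in U87 (log2 change -0.57, SE 0.11, adjusted p = 0.000148) with no call in U373 (-0.074). SLC25A24 rose by 0.35 in U373 (adjusted p = 9.19e-06) and was not called in U87 (-0.053). SLC25A25 fell by 0.28 in U87 and rose by 0.20 in U373 (limma adjusted p = 0.000246 and 0.00392).

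Both pyrimidine nucleotide carriers rose in both lines (22.3% of all rows did). They bring pyrimidine nucleotides into the matrix for mitochondrial DNA and RNA. SLC25A36 had scaled read counts of 991, 969.7 and 1076 with PBS and 1497, 1404 and 1418 with BCT-100 in U87. U373 had 776, 724 and 725 with PBS and 1526, 1498 and 1523 with BCT-100. The groups were fully apart, with rises of 1.42-fold in U87 (log2 change 0.51, SE 0.050, adjusted p = 1.38e-08) and 2.04-fold in U373 (log2 change 1.03, SE 0.050, adjusted p = 1.62e-13). SLC25A33 had 288, 325 and 309.8 with PBS and 325, 387 and 376 with BCT-100 in U87. Its U373 values were 398, 449.9 and 455 with PBS and 690.2, 659 and 630.2 with BCT-100. The recovered reads of SLC25A33 were not whole numbers in most libraries, so part of them may be assigned with uncertainty. The rise of SLC25A33 was 1.52-fold in U373 (log2 change 0.60, SE 0.082, adjusted p = 1.51e-06) and small in U87 (log2 change 0.23, SE 0.082, adjusted p = 0.016). In U87 it was lost without PBS replicate 1 or without BCT-100 replicate 2 or 3, at adjusted p-values of 0.0576 to 0.0784. Both responses were larger in U373, by 0.52 for SLC25A36 and 0.37 for SLC25A33 on the log2 scale (limma adjusted p = 2.6e-06 and 0.0108).

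Of the 7 tested carriers of coenzymes, vitamins and nucleotide cofactors, 3 rose and 3 fell in U87 (33.6% and 35.7% of all rows), and 4 rose and 2 fell in U373 (35.6% and 35.8% of all rows). SLC25A32 is the carrier of folate and FAD. Its scaled read counts were 1041, 1098 and 1049.6 with PBS and 1449, 1384 and 1500 with BCT-100 in U87. In U373 they were 1062, 1102 and 1101 with PBS and 2334, 2406 and 2492 with BCT-100. Both lines started from nearly equal levels, and the rise was 1.36-fold in U87 (log2 change 0.44, SE 0.044, adjusted p = 1.87e-08) and 2.21-fold in U373 (log2 change 1.15, SE 0.044, adjusted p = 4.21e-15), with a called difference (-0.70, adjusted p = 7.37e-09). SLC25A32 overlaps an exon of DCAF13 on the opposite strand, and DCAF13 also rose, by 0.61 on the log2 scale in U87 and 1.21 in U373. Because the strand setting of the counting is not given in the sources used here, reads of the overlap cannot be told apart. Exons on the opposite strand overlap 19 members in GENCODE v29. Beside those named with their member, the tested neighbours were RNF167 of SLC25A11 (log2 change -0.70 in U87 and -0.17 in U373), METAP1D of SLC25A12 (-0.018 and 0.21), PANO1 of SLC25A22 (-1.98 and -1.54) and NAIF1 of SLC25A25 (0.045 and -0.15).

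SLC25A26 imports S-adenosylmethionine, the methyl donor. In U87 it had scaled read counts of 314, 319 and 329.7 with PBS and 389.5, 413 and 398 with BCT-100. U373 gave 209, 224 and 218 with PBS and 361, 359 and 395 with BCT-100. All treated libraries were above their controls, with log2 rises of 0.32 (SE 0.078) and 0.77 (SE 0.078) and limma adjusted p-values of 0.00117 and 1.86e-08. Its opposite-strand neighbour LRIG1 shares exon sequence and rose by 2.29 in U87 but fell by 0.68 in U373.

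SLC25A42 brings coenzyme A into the matrix. It had scaled read counts of 254, 255 and 228 with PBS and 163, 135 and 154 with BCT-100 in U87. The U373 libraries held 228, 202 and 195 with PBS and 128, 119.5 and 95.9 with BCT-100. Treated libraries were below all controls in both lines, by 1.63-fold (log2 change -0.70, SE 0.13, adjusted p = 5.5e-05) and 1.82-fold (log2 change -0.87, SE 0.13, adjusted p = 3.84e-06). SLC25A16, a member linked to coenzyme A, went the other way, with log2 rises of 0.29 and 0.51 (limma adjusted p = 0.00465 and 1.93e-05). The NAD carrier SLC25A51 fell in both lines, by 0.65 and 0.38, and its reads may be shared with SLC25A52. The peroxisomal carrier SLC25A17 fell in U87 alone among the calls (-0.56 against -0.049), and this difference was itself called (adjusted p = 2.83e-05).

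Both glutathione carriers fell in both lines (23.1% of all rows did). They bring glutathione, which is made in the cytosol, into the matrix. SLC25A39 had scaled read counts of 1656, 1752 and 1706 with PBS and 1403, 1309 and 1191 with BCT-100 in U87. Its U373 values were 2739.6, 2531 and 2564 with PBS and 2028, 2095 and 2101 with BCT-100. It fell by 0.39 and 0.33 on the log2 scale without overlap of groups (limma adjusted p = 6.76e-07 and 5.85e-06). SLC25A40 had 421, 448 and 408 with PBS and 319, 323 and 343 with BCT-100 in U87. U373 gave 539.6, 534 and 491 with PBS and 465, 447 and 479 with BCT-100. Its fall was called in U87 (log2 change -0.37, SE 0.071, adjusted p = 9.13e-05) and, near the threshold, in U373 (log2 change -0.17, SE 0.071, adjusted p = 0.0403). The U373 call was lost after quantile normalisation, with the replicate block, and without U373 PBS replicate 1 or 2 or U373 BCT-100 replicate 1 or 2, at adjusted p-values of 0.0657 to 0.139. The opposite-strand neighbour DBF4 fell by 1.47 and 0.50.

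Of the mitoferrins, which deliver iron for heme and iron-sulfur clusters, SLC25A37 had the largest rise of the tested members in U87 and one of like size in U373. Its scaled read counts were 2593, 2652 and 2534 with PBS and 5496, 5287 and 5499 with BCT-100 in U87. In U373 the values were 873, 915 and 896 with PBS and 1946, 1985 and 2004 with BCT-100. Every treated library was far above all its controls, 2.09-fold higher in U87 (log2 change 1.06, SE 0.035, adjusted p = 4.67e-16) and 2.21-fold in U373 (log2 change 1.14, SE 0.035, adjusted p = 1.35e-16). The difference of the responses was -0.079 with SE 0.050 and was not called (adjusted p = 0.187). With PBS the level in U87 was already 2.9-fold that of U373 (log2 difference 1.53, SE 0.035, adjusted p = 4.66e-19). SLC25A28, the second mitoferrin, had 358, 393 and 405 with PBS and 327, 336 and 333 with BCT-100 in U87. Values in U373 were 355, 277 and 309 with PBS and 324, 393 and 335 with BCT-100. Neither line was called (-0.21, adjusted p = 0.0544, and 0.16, adjusted p = 0.134). The called difference of -0.38 (adjusted p = 0.0229) was lost without U87 PBS replicate 3, U373 PBS replicate 2 or U373 BCT-100 replicate 2, at adjusted p-values of 0.0565 to 0.0755.

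SLC25A46 lies in the outer membrane, where it takes part in mitochondrial fusion and shape rather than in transport. Its scaled read counts were 1719, 1590.1 and 1728 with PBS and 840.1, 763 and 895 with BCT-100 in U87. Those of U373 were 1122, 1125 and 1176 with PBS and 791, 779.9 and 837 with BCT-100. No treated library reached its controls. SLC25A46 fell 2.02-fold in U87 (log2 change -1.01, SE 0.057, adjusted p = 2.3e-12) and 1.42-fold in U373 (log2 change -0.51, SE 0.057, adjusted p = 9.43e-08), and here U87 had the larger fall (difference -0.51, adjusted p = 2.05e-05).

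Relatives of the uncoupling proteins differed among themselves. SLC25A30 had scaled read counts of 879, 814 and 816 with PBS and 777, 796 and 734 with BCT-100 in U87. The U373 libraries held 520.3, 447 and 420 with PBS and 782, 690.3 and 721 with BCT-100. It rose 1.58-fold in U373 (log2 change 0.66, SE 0.073, adjusted p = 7.23e-08) and was not called in U87 (-0.12, adjusted p = 0.15), a difference of -0.78 (adjusted p = 1.99e-06). SLC25A14 fell by 0.28 and 0.45 on the log2 scale in U87 and U373, and SLC25A27, at a value of at most 24.4 in each library, was called in neither. The carnitine carrier SLC25A20, which brings acylcarnitines in for fatty acid oxidation, rose by 0.21 in U373 (adjusted p = 0.0195) and was not called in U87 (0.16). Its call in U373 was lost without PBS replicate 1 or 3 or BCT-100 replicate 1, at adjusted p-values of 0.066 to 0.0909.

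Members with no role assigned here held the largest differences of response. SLC25A45 had scaled read counts of 47.9, 61.9 and 54.2 with PBS and 71.5, 69.5 and 73.9 with BCT-100 in U87. Its U373 values were 63.5, 58.5 and 52.7 with PBS and 31.8, 14.9 and 24.2 with BCT-100. Treated libraries were above the controls in U87, where the change was not called (log2 change 0.39, SE 0.24, adjusted p = 0.163), and below them in U373 (log2 change -1.32, SE 0.24, adjusted p = 6.29e-05), a difference of 1.71 (SE 0.34, adjusted p = 0.000271). SLC25A35 had 185, 158 and 171 with PBS and 173, 183 and 150 with BCT-100 in U87. U373 gave 193, 211 and 202 with PBS and 94.3, 75.7 and 91.2 with BCT-100. It fell 2.31-fold in U373 (log2 change -1.21, SE 0.13, adjusted p = 3.82e-08) and its groups overlapped in U87 (-0.025), a difference of 1.19 (adjusted p = 1.22e-05). Its opposite-strand neighbour RANGRF fell by 0.55 in U87 and rose by 0.24 in U373. SLC25A43 rose by 0.59 in U373 (adjusted p = 5.92e-08) and was not called in U87 (-0.046). SLC25A53 rose by 0.36 in U373 at an adjusted p of 0.0483. That call was lost under 12 of the 22 alternatives other than the test against a fold of 1.5, at adjusted p-values of 0.0505 to 0.179. They were no filter, median-of-ratios or upper quartile scaling, the replicate block, and leaving out U87 PBS replicate 2 or 3, U87 BCT-100 replicate 1 or 2, U373 PBS replicate 1 or 3, or U373 BCT-100 replicate 1 or 2.

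With PBS alone, the members higher in U87 by the most were SLC25A37 (1.53), SLC25A22 (1.36) and SLC25A12 (0.88), and those lower by the most were SLC25A6 (-3.51), SLC25A23 (-1.78) and SLC25A10 (-1.17). SLC25A30 was also 1.81-fold higher in U87 and SLC25A29 1.91-fold lower. Among the smaller calls between the lines, those of SLC25A28, SLC25A44 and SLC25A51 were lost with the replicate block. That fit compares the lines at replicate 1 of each and not by group means, so it is not a check of this comparison. Without U373 PBS replicate 2, SLC25A28 and SLC25A44 were not called, and without U87 PBS replicate 1 or U373 PBS replicate 3, SLC25A51 was not. Over these alternatives the adjusted p-values ran from 0.0527 to 0.234 for SLC25A28, 0.0543 to 0.071 for SLC25A44 and 0.0518 to 0.0937 for SLC25A51.

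Carriers outside the family were read from lists chosen for the same transport steps. Of the 7 genes for the pyruvate carrier and the sideroflexins, 2 rose and 5 fell in U87 (33.6% and 35.7% of all rows), and 1 rose and 5 fell in U373 (35.6% and 35.8% of all rows). MPC1 and MPC2 together form the pyruvate carrier. MPC1 fell in U87 only among the calls (log2 change -1.29, against -0.095 in U373, difference adjusted p = 3.93e-06), and MPC2 rose by 0.31 in U87 and fell by 1.14 in U373 (difference adjusted p = 1.96e-11). The serine carrier SFXN1 had log2 changes of -0.92 and -0.51 in U87 and U373, and SFXN3 of -0.93 and -0.95. SFXN2 fell by 1.84 and 1.34 while SFXN4 rose by 0.23 and 0.76.

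The uncoupling protein UCP2, which has the carrier fold under another symbol, rose by 1.37 in U87 and fell by 0.97 in U373 (difference 2.33, adjusted p = 1.43e-11). MTCH1 and MTCH2, carrier-fold proteins of the outer membrane, moved apart: MTCH1 rose by 0.18 and 0.31 and MTCH2 fell by 0.76 and 0.68 in U87 and U373. Of the voltage-dependent channels of the outer membrane, VDAC1 fell by 0.96 and 0.27, VDAC3 fell by 0.63 and 0.46, and VDAC2 rose by 0.27 and 0.96. Among the enzymes of the malate-aspartate shuttle, which SLC25A11, SLC25A12 and SLC25A13 serve, the cytosolic aminotransferase GOT1 rose by 1.3 in U87 and 1.61 in U373. The cytosolic malate dehydrogenase MDH1 fell by 0.83 and 0.86. Mitochondrial GOT2 and MDH2 fell in U87, by 0.11 and 0.24, and rose in U373, by 0.32 and 0.14.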

How the data were processed

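Total RNA of 12 libraries was sequenced, 3 in each of 4 groups, and groups were taken from the treatment labels. STAR, RSEM and the build hg38 are named, without versions, per the submitters' processing notes. The authors deposited 1 signal value for each gene in each library. From the values these are estimated read counts over a scaling factor of the library. The way the factors were made is not given in the sources used here. After the division was undone, 86.25% to 87.52% of the lower values were whole within 0.001, so no count model was run, although the design had named one where the unit allowed it.

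The table had 19844 entries, and 20 repeats of another entry were left out. Rows that reached 10 in 3 or more libraries were fitted with limma 3.58.1 in R 4.3.3 on log2(value + 1), with a trended and robust prior, 4 group means and 8 residual degrees of freedom. The Benjamini-Hochberg adjustment ran over all tested rows. Folds are on the log2(value + 1) scale, which understates changes of low genes. The p-values rest on the spread among libraries of a group, and this spread may be technical only. Replicate pairs differed by more than read sampling, with a chi-square per gene of 2.3 to 3.78. The fit was tested on simulated data.

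Members and gene lists were chosen with earlier results of these data known. Values per library are given for a panel of members with known substrates and for the members with the largest called changes. Positions, lengths, overlaps and pseudogenes come from GENCODE v29 (GRCh38), and promoter sequences from RefSeq (GRCh38.p14). Levels per kilobase use the median length of a gene's coding transcripts. Alternatives were other pseudocounts, filters and scalings, voom weights, a fit of each line alone, a replicate block, a test against a fold of 1.5, and leaving out each library. Counts of 0 and read sums take account of counting error only. The counts cover all tested members, and 1 tested member and 1 upstream sequence are not reported here.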

Additional observations from a re-analysis of the deposited data

Results flagged for a closer look

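For 24 of the 40 tested members the response to BCT-100 differed between the lines, by limma's interaction term at an adjusted p under 0.05. That is 60%, near the 56.8% of all 13628 tested rows. The value after each symbol reported here is the log2 change in U87 minus that in U373. Positive differences were those of SLC25A45 (1.71), SLC25A35 (1.19), SLC25A29 (0.86), SLC25A10 (0.62), SLC25A1 (0.46), SLC25A5 (0.44) and SLC25A11 (0.35). Of these, SLC25A29 rose in U87 and fell in U373, SLC25A35 and SLC25A45 were called in U373 and not in U87, and the other 4 fell in both lines, further in U373.

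Negative differences among members that rose in U373 and were not called in U87 were those of SLC25A15 (-0.79), SLC25A30 (-0.78), SLC25A43 (-0.64) and SLC25A24 (-0.41). SLC25A12 (-0.61), SLC25A38 (-0.50) and SLC25A25 (-0.48) fell in U87 and rose in U373. SLC25A32 (-0.70), SLC25A36 (-0.52), SLC25A26 (-0.46) and SLC25A33 (-0.37) rose in both lines, further in U373. SLC25A46 (-0.51) fell in both, further in U87. SLC25A17 (-0.52), SLC25A23 (-0.49) and SLC25A3 (-0.20) fell in U87 and were not called in U373. SLC25A28 (-0.38) was called in neither line alone.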

How the results depend on the processing

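Each of the 160 member changes (40 members in 4 comparisons) was recomputed under 23 alternatives where the alternative could give it. Direction and call stayed the same in 3404 values, a call was lost in 156, a call was gained in 32, and no called change took the opposite sign, while 40 changes that were not called did. Of the 114 called changes, 12 lost the call under some alternative other than the test against a fold of 1.5, and each is named with its adjusted p in the report. Against a fold of 1.5 (limma's treat), 27 called changes kept the call. In U87, 1 of the 40 members was higher and 4 were lower, against 1295 and 1473 of all 13628 rows. In U373 these were 4 and 7 members, against 1524 and 1655 rows. For the difference of the responses they were 2 and 0 (with 17 lower by the same tool against a fold of 1), against 840 and 907 rows. For U87 against U373 with PBS they were 4 and 5 members, against 3019 and 2827 rows. Leaving out 1 library at a time gave 6 to 9 members higher and 19 to 21 lower in U87, and 15 to 18 higher and 14 to 16 lower in U373. It gave 7 higher and 16 to 18 lower for the difference, and 12 to 15 higher and 14 lower for the lines with PBS. Those fits tested 13545 to 13570 rows. Of all rows, 4299 to 4589 were higher and 4580 to 4875 lower in U87, and 4600 to 4844 and 4611 to 4884 in U373. For the difference the rows numbered 3326 to 3473 and 3962 to 4134, and for the lines with PBS 5669 to 5882 and 5241 to 5475. Same-numbered libraries showed no sign of pairing, with correlations of their deviations of -0.0373, 0.0627 and -0.0498 in U87 and -0.102, -0.0363 and 0.00732 in U373. Libraries of unlike number had -0.129 to 0.166 in U87 and -0.102 to 0.141 in U373. With 3 libraries a group, this cannot show that the samples were unpaired. With a replicate block 7 members were higher and 19 lower in U87, 17 and 15 in U373, 7 and 17 for the difference, and 11 and 14 for the lines with PBS. Among all 13628 rows, the block gave 4573 higher and 4835 lower in U87, and 4824 and 4847 in U373. The rows numbered 3515 and 4135 for the difference, and 5409 and 4955 for the lines with PBS, again at replicate 1. The fit of each line alone gives no difference between the lines. Depth limits the 8 members that were not tested and SLC25A18.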

Other observations

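Proteins that carry SLC25 precursors to the inner membrane were followed with 12 genes of the import route, all of them tested. TOMM20, TOMM22, TOMM40 and TOMM70A among them belong to the outer membrane and not to the TIM22 complex. TIMM29 was on the list but has no row under that symbol. In U87, 3 rose, 3 fell and 6 were not called (33.6% of all rows rose and 35.7% fell), with a median log2 change of -0.0060. In U373, 11 rose, 0 fell and 1 was not called (35.6% and 35.8% of all rows), with a median of 0.32, and the response was lower in U87 than in U373 for 10 of the 12 (30.7% of all rows). TIMM9, a small chaperone of the space between the membranes, rose by 1.24 in U373 (limma adjusted p = 1.93e-12) and had a change of 0.040 in U87 (adjusted p = 0.628). The receptor TOMM20 rose by 0.27 in U87 and 1.02 in U373. The channel TOMM40 fell by 0.45 in U87 and rose by 0.33 in U373. AGK, a kinase that is also a subunit of the TIM22 complex, was called in neither line.

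The difference of SLC25A6 between the lines was set beside its neighbours in the region shared by the X and Y chromosomes, which were chosen after values were seen. With PBS, 7 of 8 other tested neighbours were higher in U373 than in U87, with ratios of means from 0.673 (ASMTL) to 5.47 (ZBED1), and SLC25A6 had a ratio of 11.4. CD99 had 2.87 and DHRSX 3.39. No explanation was tested.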
